A study of Mus musculus with 15 samples.

Results

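H3K4me2 peaks that were called in Pax6 knockdown (KD) αTN4 cells and had no counterpart in control cells were examined. These KD-only peaks are the peaks of the Pax6 KD list that share not a single base with any peak of the control list. They numbered 4834 of 65852 KD peaks, which is 7.34% of that list; the other 61018 KD peaks overlapped a control peak and are called shared peaks. In the opposite direction, 11630 of 66274 control peaks, or 17.5%, had no KD peak and are called control-only peaks. The peaks were chosen by the H3K4me2 peak calls of both conditions, so the number, strength and width of the KD-only peaks are descriptions of how they were chosen.

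The αTN4 line consists of mouse lens epithelial cells transformed with the SV40 T antigen. Cells were infected with a lentivirus carrying either a control shRNA or an shRNA against Pax6, were selected with puromycin for 14 days and were kept under puromycin, so both groups carry an integrated construct and the resistance marker. The Pax6 KD cells used for ChIP-seq come from 1 of the study's shRNA lines (sh2), and the methods describe the lines as pools of stably infected cells, not clones. H3K4me1, H3K4me2 and H3K4me3 were mapped in both groups, Pax6 and RNA polymerase II (Pol2) are used here from control cells, and H3K4me2 of whole lenses from CD-1 mice at postnatal day 1 serves as a tissue reference.

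H3K4 methylation is laid down by the Mll/Set1 family of methyltransferases and exists as mono-, di- and trimethylation, which tend to divide the active genome among them. H3K4me3 marks the starts of active genes, H3K4me1 marks distal enhancers, and H3K4me2 is found at both. Pax6 is a transcription factor with paired and homeodomain DNA-binding domains that is required for lens formation and for much of eye and brain development.

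Each list comes from 1 library, so no difference between conditions has a replicate check, and no p-value is given. The control H3K4me2 peaks carry names that hint at pooled replicates, while the KD names do not; the methods do not mention pooling. Peak lists do not give read totals, so the depth of the H3K4me2 libraries is unknown, and a peak missing from a list can be a weak signal as well as none. The H3K4me1 lists differ strongly in size, with 38007 islands covering 149 Mb in control and 18417 islands covering 97.2 Mb in KD cells. The H3K4me3 lists hold 14869 and 14301 peaks. Intervals of shares are 95% Wilson intervals and cover counting error only. In a bulk ChIP library, more cells with a mark and more of the mark per cell cannot be told apart.

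Sequences of 5 KD-only peaks are given first, chosen as the strongest of their kind and not as typical sites. Each is 200 bases of mm9 around the summit, plus strand, 5′ to 3′. The strongest KD-only peak lies in an intron of Fer1l6, and the strongest with lens H3K4me2 lies between genes, 20.5 kb from the start of Clcn4-2. The other 3 are the strongest peaks of 3 runs of KD-only peaks, in introns of Pcdh9 and Ctnna2 and downstream of Slitrk5.
Fer1l6 (chr15:58403375-58403574): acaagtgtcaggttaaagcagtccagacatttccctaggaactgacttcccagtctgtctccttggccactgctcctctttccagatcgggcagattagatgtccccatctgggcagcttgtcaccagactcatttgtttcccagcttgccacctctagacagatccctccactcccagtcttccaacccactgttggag
Clcn4-2 (chr7:7230759-7230958): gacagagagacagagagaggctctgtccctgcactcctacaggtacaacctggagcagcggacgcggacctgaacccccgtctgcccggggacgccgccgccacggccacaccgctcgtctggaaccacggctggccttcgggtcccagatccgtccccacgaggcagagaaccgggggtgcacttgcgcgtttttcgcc
Pcdh9 (chr14:94263171-94263370): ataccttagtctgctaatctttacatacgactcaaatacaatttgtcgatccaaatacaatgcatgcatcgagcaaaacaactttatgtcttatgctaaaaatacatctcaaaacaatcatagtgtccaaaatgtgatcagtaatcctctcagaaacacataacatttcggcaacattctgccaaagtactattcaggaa
Slitrk5 (chr14:112083240-112083439): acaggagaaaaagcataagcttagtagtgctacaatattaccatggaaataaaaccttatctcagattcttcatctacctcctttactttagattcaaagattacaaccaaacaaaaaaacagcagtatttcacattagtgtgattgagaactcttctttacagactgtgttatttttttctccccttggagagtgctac
Ctnna2 (chr6:77280075-77280274): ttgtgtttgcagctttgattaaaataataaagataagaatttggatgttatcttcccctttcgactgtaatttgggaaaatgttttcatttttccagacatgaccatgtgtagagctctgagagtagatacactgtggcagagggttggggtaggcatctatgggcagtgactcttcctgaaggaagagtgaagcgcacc

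These windows differ widely in base composition. The Clcn4-2 window had 67.5% G and C with 19 CpG dinucleotides. The Pcdh9 and Slitrk5 windows had 34% each, with 4 and 0 CpG.

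A second set is shown for a word of AP-1, the Fos and Jun family of factors. The word searched was TGANTCA, which reads the same way on both strands, and its letters are in capitals. N stands for any base, so the word is a loose one. It reads TGAATCA at Spon1, Stc1 and 5430407P10Rik and TGAGTCA at Sphkap. The forms were not counted apart, and binding of AP-1 was not tested. Spon1, Stc1 and Sphkap are the strongest KD-only peaks farther than 1 kb from any control peak that held the word in this window. The peak near 5430407P10Rik also overlaps a Pax6 peak of control cells.
Spon1 (chr7:121155117-121155316): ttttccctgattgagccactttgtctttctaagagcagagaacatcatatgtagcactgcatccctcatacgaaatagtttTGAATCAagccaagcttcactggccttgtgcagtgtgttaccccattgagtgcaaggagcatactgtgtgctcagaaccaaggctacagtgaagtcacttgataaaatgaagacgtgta
Stc1 (chr14:69599469-69599668): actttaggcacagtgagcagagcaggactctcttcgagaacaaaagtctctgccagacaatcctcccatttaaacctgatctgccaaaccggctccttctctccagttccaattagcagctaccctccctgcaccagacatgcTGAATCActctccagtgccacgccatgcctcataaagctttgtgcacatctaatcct
Sphkap (chr1:83270075-83270274): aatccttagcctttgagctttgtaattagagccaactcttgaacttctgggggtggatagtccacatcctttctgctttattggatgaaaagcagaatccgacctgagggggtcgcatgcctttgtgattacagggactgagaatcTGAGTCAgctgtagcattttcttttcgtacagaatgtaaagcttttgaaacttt
5430407P10Rik (chr2:6061735-6061934): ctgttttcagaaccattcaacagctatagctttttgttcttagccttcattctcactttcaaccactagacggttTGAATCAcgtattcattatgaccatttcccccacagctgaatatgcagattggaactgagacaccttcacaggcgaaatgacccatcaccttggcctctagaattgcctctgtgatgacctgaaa

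The Spon1 and Sphkap peaks are intronic, with fold enrichments over background of 7.46 and 6.60. The Stc1 peak is intergenic, with a fold of 6.94, and also carried H3K4me2 in newborn lens. They lie 3.63, 110 and 25.9 kb from the nearest control H3K4me2 peak for Spon1, Sphkap and Stc1, in that order.

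KD-only peaks were weak and narrow within the KD list. The median fold enrichment, the ratio over background that MACS2 reports, was 4.22 in KD-only peaks and 7.99 in shared peaks. The median −log10 q, the strength of the peak call, was 4.99 and 15.9. The median width was 272 bp and 795 bp, and 817 KD-only peaks (16.9%) had the smallest width in the list, 210 bp. By quartiles of the whole KD list, 3966 KD-only peaks were in the lowest quartile by fold, 854 in the second, 14 in the third and 0 in the highest. Of KD peaks with a fold from 3 to 4, 28.6% were KD-only, against 7.90% from 5 to 6 and 0.350% from 7 to 8. None of the 24746 KD peaks with a fold of 10 or more was KD-only. Control-only peaks had a similar place in the control list, with a median fold of 4.03 and a median width of 328 bp.

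**Figure D1:**
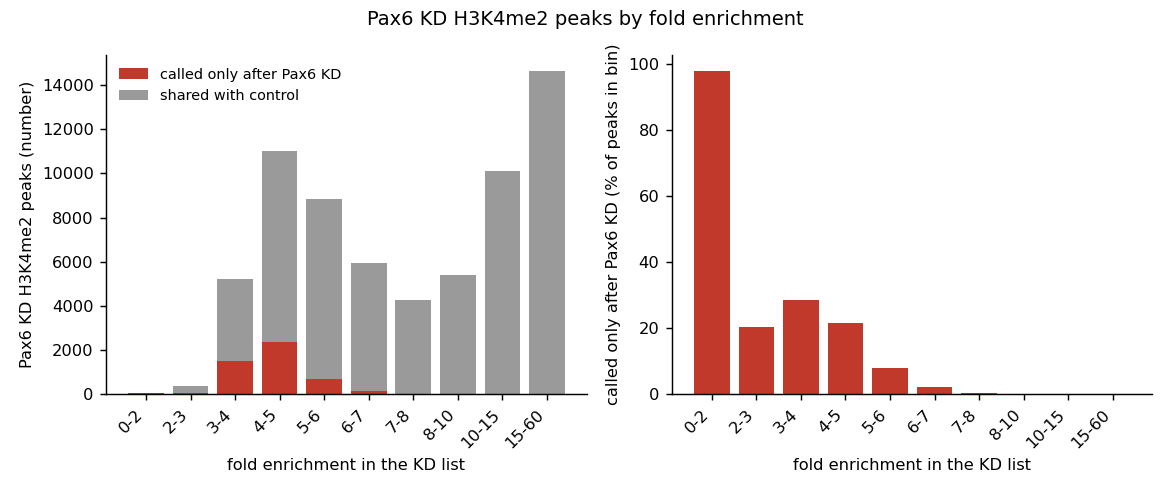
Left, number of Pax6 KD H3K4me2 peaks by fold enrichment (horizontal axis, fold over background as deposited), split into KD-only (red) and shared (grey) peaks. Right, the percentage of peaks in each bin that were KD-only: 28.6% of peaks from fold 3 to 4, 21.6% from 4 to 5, and 0 from fold 10 upward; the 47 peaks below fold 2 are nearly all KD-only.

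The 10 strongest KD-only peaks had folds between 7.79 and 9.08, near the middle of the KD list (percentiles 52.7 to 59.3). The first, at chr15:58403320-58403612 in an intron of Fer1l6, a ferlin family gene, had a fold of 9.08 and was only 131 bp from a control peak. The next 2 had a fold of 9.03. They are in an exon of Csf2ra, a subunit of the GM-CSF receptor, 3.82 kb from its start, and between genes near the chloride channel gene Clcn4-2. A peak near Susd4 had a fold of 8.33 and an intronic peak of Gm20464 one of 7.99. Others lay in introns of Tpm2, which encodes a tropomyosin, and of Mtpn, which encodes myotrophin. Of these 10 peaks, 5 were within 1 kb of a control peak, at 115 to 300 bp, and the other 5 were 23.7 to 452 kb away. The most distant, at chr15:20832258-20832832, had a fold of 7.93 and lay 208 kb from the nearest start, that of Cdh12.

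At the edge of the rule, 45 KD-only peaks lay within 10 bp of a control peak and 40 shared peaks had at most 10 bp in common with one. For example, the KD-only peak at chr12:27783012-27783295 (fold 4.51) abutted a control peak, whereas the shared peak at chr11:54227472-54227698 (fold 4.17) had 1 bp in common with one. The median distance from a KD-only peak to the nearest control peak was 3816 bp. A group of 1779 KD-only peaks (36.8%) lay within 1 kb of a control peak, and for 1366 of these (76.8%) that control peak was itself matched by another KD peak. The remaining 3055 lay farther away, and 301 (6.23%) were more than 100 kb from any control peak.

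KD-only peaks were found mainly away from gene starts. Promoters, taken as 2 kb either side of a protein-coding start, held 372 of 4834 KD-only peaks (7.70%, interval 6.98 to 8.48), against 33.1% of all KD peaks and 35.1% of shared peaks. Shared peaks of the lowest quartile, which are of similar strength, were at promoters in 10.0% (9.51 to 10.6), and control-only peaks in 9.53% (9.01 to 10.1). Among KD-only peaks, the share was 12.4% (10.9 to 14.0) within 1 kb of a control peak and 4.98% (4.26 to 5.80) farther away. The median distance to a protein-coding start was 35.5 kb, against 10.6 kb for shared peaks and 26.7 kb for those of the lowest quartile.

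By peak centre, 2064 KD-only peaks (42.7%) were in introns, 149 (3.08%) in exons and 2621 (54.2%) between genes. Shared peaks were in exons in 6.80% and between genes in 47.2%. No protein-coding gene was found within 50 kb of 1156 KD-only peaks (23.9%, 22.7 to 25.1), compared with 13.5% of shared peaks and 19.8% (19.1 to 20.5) of the shared peaks in the lowest quartile. The share was 27.3% (25.7 to 28.9) for KD-only peaks more than 1 kb from a control peak and 18.1% (322 of 1779) for those nearer. The median distance to a start was 43.8 kb and 24.6 kb in the same order, so only the first group was farther from genes than the shared peaks of the lowest quartile.

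Only 41 KD-only peaks covered a protein-coding start, and these fell into different kinds. Of the 15 within 1 kb of a control peak, 10 overlapped KD H3K4me3, 11 overlapped Pol2 and 9 overlapped lens H3K4me2. Examples are Eif2s1, which encodes a subunit of the translation initiation factor eIF2, and Nfyc, a subunit of the CCAAT-binding factor NF-Y; both peaks had a fold of 5.56 and carried all of these marks. Of the 21 farther away with a fold of at least 2, 1 overlapped KD H3K4me3, 1 overlapped Pol2 and 5 overlapped lens H3K4me2. The strongest of these, at Veph1, had a fold of 6.25 and none of the marks, 17.3 kb from a control peak. Eif2s1, Nfyc and Veph1 were picked for this description after their values were seen.

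KD-only peaks were spread over the genome more evenly than shared peaks. In 123 windows of 20 Mb, the number of KD-only peaks ran from 10 to 60 with a median of 37 and a coefficient of variation of 30.4%. Shared peaks ran from 93 to 984 per window with a coefficient of variation of 44.7%, and control-only peaks from 11 to 223 with one of 47.8%. Per chromosome, KD-only peaks made up between 5.38% (chromosome 19) and 10.0% (chromosome 14) of KD peaks. The X chromosome had few peaks of any kind, 1.02 KD-only and 9.62 shared per Mb, and a KD-only share of 9.59%. Chromosome 11, the richest in shared peaks with 36.1 per Mb, had 2.28 KD-only peaks per Mb and a share of 5.94%.

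Besides the first window of chromosome 9, described below, the windows with the highest KD-only share were poor in shared peaks, against a median of 427 shared peaks per window. Shared peaks are part of the base of this share, so a low number of them raises it by construction. On chromosome 14 from 80 to 100 Mb, 48 of 169 KD peaks (28.4%) were KD-only, and on chromosome 16 from 60 to 80 Mb, 52 of 238 (21.8%). On chromosome 6 from 60 to 80 Mb, the number was 44 of 260 (16.9%). These windows hold Pcdh9, Cadm2 and Ctnna2, the genes with many KD-only peaks described next.

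**Figure D2:**
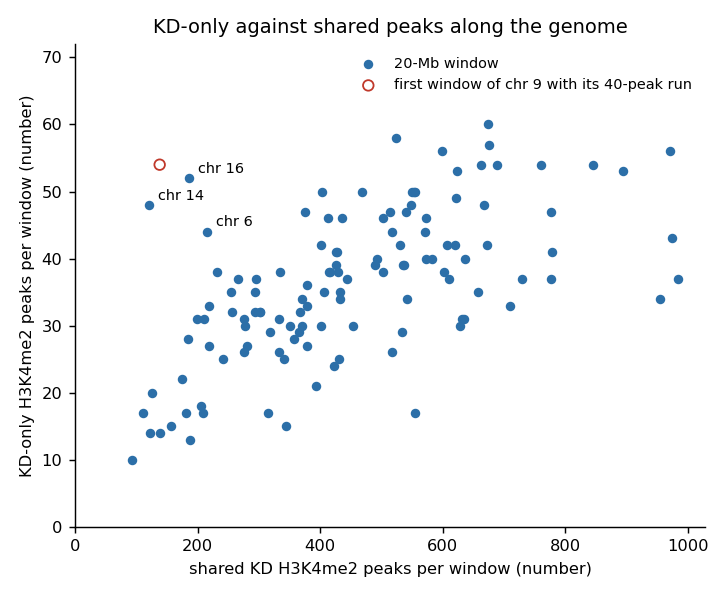
KD-only peaks (vertical axis, number) against shared KD peaks (horizontal axis, number) in 123 windows of 20 Mb, each point 1 window. The labelled windows of chromosomes 14, 16 and 6 have 48, 52 and 44 KD-only peaks beside 121, 186 and 216 shared ones, and the red circle is the first window of chromosome 9, with 54 KD-only peaks of which 40 come from its first 3.1 Mb.

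A run of 40 KD-only peaks at the start of chromosome 9, chr9:3000082-3037451, stood apart from the rest and touches several counts. Its folds were among the lowest in the list, from 1.33 to 2.19, yet its −log10 q values reached 22.9, the highest of all KD-only peaks. There was no control H3K4me2 peak in the first 3.1 Mb of the chromosome, while the lens list had 39 peaks and 37 of the 40 KD-only peaks overlapped them. A single H3K4me1 island of 38.4 kb covered the run in each condition. It had 593 input reads per kb in control and 598 in KD cells, where the median over all islands was 12.8 and 11.3. The ChIP reads per kb, 336 and 429, were lower than the input reads. The gene models there, such as Gm10721 with 8 of 8 KD peaks KD-only and Gm11168 with 7 of 7, are among the 15 genes with the most KD-only peaks. Without this stretch, 4794 KD-only peaks remained, 7.28% of the KD list, and the lens share below fell to 7.78%.

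Most KD-only peaks that were assigned to a gene were the only one of that gene. With a peak assigned to the gene that holds its centre, or else to the nearest gene within 50 kb, 3678 KD-only peaks were assigned to 2765 protein-coding genes, 17.9% of the 15450 genes with a KD peak. Of these genes, 2161 had 1 KD-only peak, 435 had 2, 141 had 3 or 4, and 28 (0.181% of genes with a KD peak) had 5 or more. The 28 genes were long, with a median of 404 kb against 56.2 kb for genes with any KD-only peak and 22.6 kb for all with a KD peak. They held 192 KD-only and 162 control-only peaks, and in 21 of the 28 the KD-only peaks outnumbered the control-only peaks. Because the genes were selected by their number of KD-only peaks, this balance is favoured by the selection and is not evidence of a gain. Over the whole lists control-only peaks were more numerous, 11630 against 4834. For 281 of the 15450 genes with a KD peak, all KD peaks were KD-only. The median gene with a KD peak had 2 of them, so few peaks are enough for this.

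**Figure D3:**
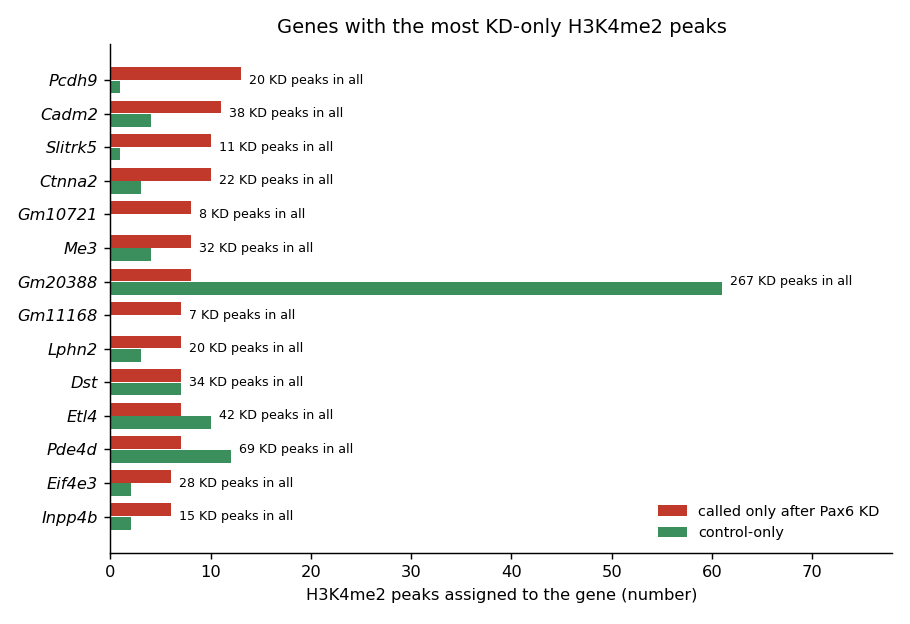
Of the 15 protein-coding genes with the most KD-only H3K4me2 peaks, the 14 reported here: number of KD-only (red) and control-only (green) peaks assigned to each gene, with all KD peaks of the gene as text. Pcdh9, Cadm2, Slitrk5 and Ctnna2 lead with 13, 11, 10 and 10 KD-only peaks, and Gm20388, a gene model of 4435 kb, has 61 control-only peaks beside 8 KD-only.

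Pcdh9, a protocadherin expressed in neurons, had 13 KD-only peaks among 20 KD peaks, against 1 control-only peak among 9 control peaks. Its gene body spans chr14:93414731-94287951, and 12 of the 13 were intronic. Folds ran from 3.44 to 5.21. A run of 6 covered 20.1 kb at chr14:94261571-94281692, with peaks 3.75 to 23.7 kb from the nearest annotated transcript start of the gene. Cadm2, an immunoglobulin family adhesion molecule of synapses (chr16:66655666-67621153), had 11 among 38, all intronic, with folds from 3.47 to 6.25 and 4 control-only peaks among 30. Its strongest, with a fold of 6.25, belonged to a run of 4 within 13.0 kb.

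Ctnna2, which encodes the neuronal α-catenin that links cadherins to actin (chr6:76831631-77929693), had 10 KD-only peaks among 22 and 3 control-only peaks among 14. A run of 6 spanned 66.8 kb of its introns with folds from 3.44 to 4.86, and its nearest control peak was 16.0 kb away. The start nearest to 9 of the 10 peaks was that of Lrrtm1, a synaptic leucine-rich repeat gene nested in Ctnna2.

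Slitrk5, another leucine-rich repeat membrane protein of neurons, had the highest KD-only share outside chromosome 9 among genes with at least 8 KD peaks. In this gene of 8.02 kb (chr14:112074337-112082356), 10 of 11 KD peaks were KD-only. All 10 lay downstream, between 8.85 and 36.4 kb from the start, and the weakest (fold 3.47) and the strongest (fold 6.60) began at 24.1 and 34.9 kb. The shared KD peak among them had a fold of 6.25, and the control peak beneath it one of 3.69. The other control peak, near the gene's start, had a fold of 3.69 and no KD partner. Newborn lens had a different arrangement, with 2 strong peaks over the gene itself (fold 24.8 and 34.2) and none at the KD-only sites.

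**Figure D4:**
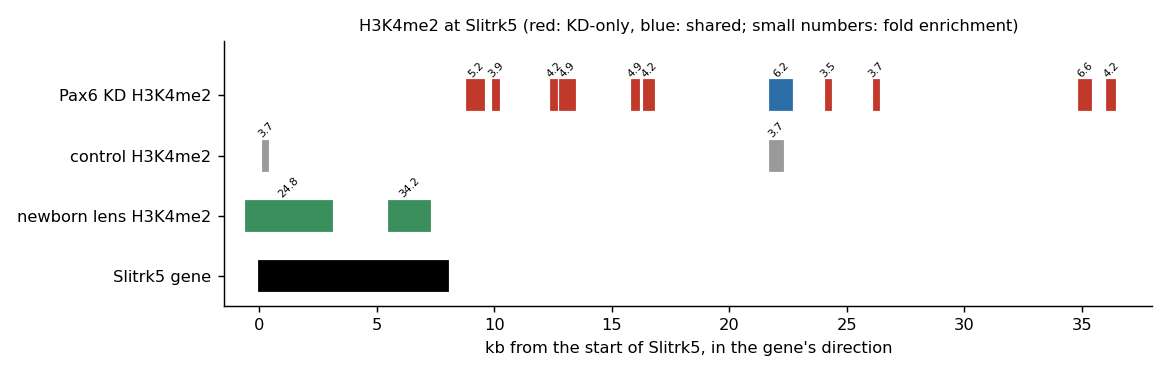
H3K4me2 peaks around Slitrk5, by distance from its start in kb (horizontal axis), with 1 row each for Pax6 KD cells (red KD-only, blue shared), control cells, newborn lens and the gene body; small numbers give fold enrichment. The 10 KD-only peaks lie past the gene's end, whereas the lens peaks of fold 24.8 and 34.2 lie over the gene.

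None of the 34 KD-only peaks of Pcdh9, Cadm2 and Slitrk5 overlapped an H3K4me1 island of either condition, and 1 of the 34 overlapped lens H3K4me2. Other genes with many KD-only peaks were different in this respect. Me3, a mitochondrial malic enzyme, had 8 among 32, of which 5 lay in control and 3 in KD H3K4me1 islands. Dst, which encodes the cytoskeletal linker dystonin, had 7 among 34, of which 5 and 4 did. In Pde4d, a cyclic AMP phosphodiesterase, and in Etl4, control-only peaks were more numerous, 12 against 7 and 10 against 7. Lphn2, an adhesion receptor of the latrophilin family, had 7 among 20. Eif4e3, a cap-binding protein, had 6 among 28, and Inpp4b, a phosphoinositide phosphatase, 6 among 15.

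Among genes with at least 8 KD peaks, high KD-only shares were also seen at Gsk3b and Rgs21, each with 4 of 8. Gsk3b encodes a kinase of the Wnt pathway, and all 4 of its KD-only peaks were within 1 kb of a control peak. Rgs21 encodes a regulator of G-protein signalling. Col11a1, a fibrillar collagen chain, had 6 of 13, and Hs3st1, a heparan sulfate sulfotransferase, had 4 of 9 without any H3K4me1 island. Cbara1, which encodes a regulator of mitochondrial calcium uptake, and Mtap, an enzyme of the methionine salvage pathway, also had 4 of 9. Bdnf, the gene of a neurotrophin, was looked at after its values were seen, and had 5 among 13 KD peaks, with folds from 3.58 to 6.53, and 0 control-only peaks.

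In most of the lists of lens and signalling genes, the share of KD-only peaks was below that of the whole KD list, on small counts. Of the 7 Pax6-bound genes that the study names as lower after knockdown, 4 had a KD-only peak: Farp1 and Tshz2 had 2 each, and Cap2 and Zfp536 had 1 each. Pax6, Prox1 and Plekha1 had 0 among their 1, 5 and 1 KD peaks. Together these genes had 6 KD-only among 69 KD peaks (8.70%, 4.05 to 17.7), near the 7.34% of the whole list. Of the 3 genes named as higher, Eya4 had 1 KD-only peak among 12, and Csf1 and Dhrs3 had 0 among 20 and 5. The study chose these genes by RNA-seq of Pax6 KD cells, first in its sh1 line, whereas the H3K4me2 data are from sh2 cells, and the 7 bound genes also by the Pax6 peaks of the control cells used here. Their counts are therefore not independent evidence of a direction.

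Lens transcription factor genes had 10 KD-only among 184 KD peaks (5.43%), and crystallin and lens fibre genes had 4 among 45 (8.89%). Ets family genes had 6 among 117 (5.13%), with 2 of them at Ets1. AP-1 genes had 1 among 71 (1.41%) and clustered Hox genes 3 among 85 (3.53%). TGF-β and BMP pathway genes had 7 among 198 (3.54%, 1.72 to 7.12), and Wnt ligands and Frizzled receptors 8 among 119 (6.72%). The TGF-β and BMP interval was the only one of the 12 lists to exclude the share of the whole KD list. Neural and retinal genes had 2 among 53 (3.77%), and genes of H3K4 methyltransferases and demethylases 1 among 51 (1.96%). The median gene had no KD-only peak in 11 of the 12 lists, as over all genes with a KD peak, of which 17.9% had any. It was 5.56% of a gene's KD peaks in the list of 7 Pax6-bound genes.

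Epithelial and mesenchymal genes had 14 among 182 (7.69%), and 8 of these belonged to Dcn and Cdh11. Dcn, which encodes the matrix proteoglycan decorin, had 4 KD-only among 7 KD peaks. They lie upstream of the gene, 32.8 to 48.0 kb from its start, and belong to a run of 5 at chr10:96872097-96909470 with folds from 4.54 to 5.56. The nearest control peak to this run was 19.8 kb away. Cdh11, a cadherin of mesenchymal cells, had 4 among 12, each within 1 kb of a control peak.

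Lens H3K4me2 was present at 410 of 4834 KD-only peaks (8.48%, 7.73 to 9.30), against 42.6% of all KD peaks. The share rose with strength among shared peaks, from 14.2% (13.6 to 14.8) in the lowest quartile to 20.3% in the second and 46.9% in the third. Among KD-only peaks it was 8.07% (7.26 to 8.96) in the lowest quartile and 10.3% (8.44 to 12.5) in the second, so in both it was below that of shared peaks. Within 1 kb of a control peak the KD-only share was 10.2% (8.85 to 11.7), and farther away it was 7.50% (6.61 to 8.48). Control-only peaks overlapped lens H3K4me2 in 13.5% (12.9 to 14.2). The lens peaks found at KD-only sites were of ordinary strength in lens, with a median fold of 6.58, the same as that of all lens peaks. Promoters held 130 of the 410 KD-only peaks with lens H3K4me2, and the remaining 280 were 6.28% of the KD-only peaks outside promoters. These counts and the median lens fold include the run at the start of chromosome 9. That run held 37 of the 410, and 33 of the 372 KD-only peaks at promoters.

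The strongest KD-only peaks with lens H3K4me2, besides that near Clcn4-2, had folds of 8.33 near Slc27a6, a fatty acid transport gene, and 7.29 in an intron of Mtus1. The peak near Stc1, which encodes the secreted hormone stanniocalcin, had a lens peak with a fold of 7.37, the 54.0th percentile of the lens list. The lens peaks at the other 4 of these 5 sites stood between the 6.29th and the 27.7th percentile.

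Control H3K4me1 was present at 2175 KD-only peaks (45%, 43.6 to 46.4), against 63.7% of all KD peaks and 70.6% (69.8 to 71.4) of shared peaks in the lowest quartile. KD H3K4me1 was present at 1235 (25.5%, 24.3 to 26.8), against 38.1% of all KD peaks and 42.0% (41.1 to 42.9) of the lowest shared quartile. KD-only sites thus overlapped H3K4me1 islands of control cells more often than those of Pax6 KD cells, as did KD peaks at large. The KD island list has fewer islands and covers less of the genome. Both shares depended on the distance to a control peak. Within 1 kb, 64.4% (62.2 to 66.6) had control and 38.1% (35.9 to 40.4) had KD H3K4me1. Farther away, 33.7% (32.0 to 35.4) and 18.2% (16.9 to 19.6) did.

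By island class, 1115 KD-only peaks had H3K4me1 in both conditions, 1060 in control alone, 120 in KD alone and 2539 in neither. The neither class made up 52.5% (51.1 to 53.9), compared with 28.2% (27.4 to 28.9) of shared peaks in the lowest quartile. H3K4me1 in control alone was found at 21.9% of KD-only and 26.8% of all KD peaks. H3K4me1 in KD alone was found at 2.48% (2.08 to 2.96) of KD-only peaks, against 1.16% of all KD peaks and 1.28% of shared peaks in the lowest quartile (161 of 12550). Its strongest example was an intronic peak of Tmeff2 with a fold of 7.14, 7.65 kb from a control peak.

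**Figure D5:**
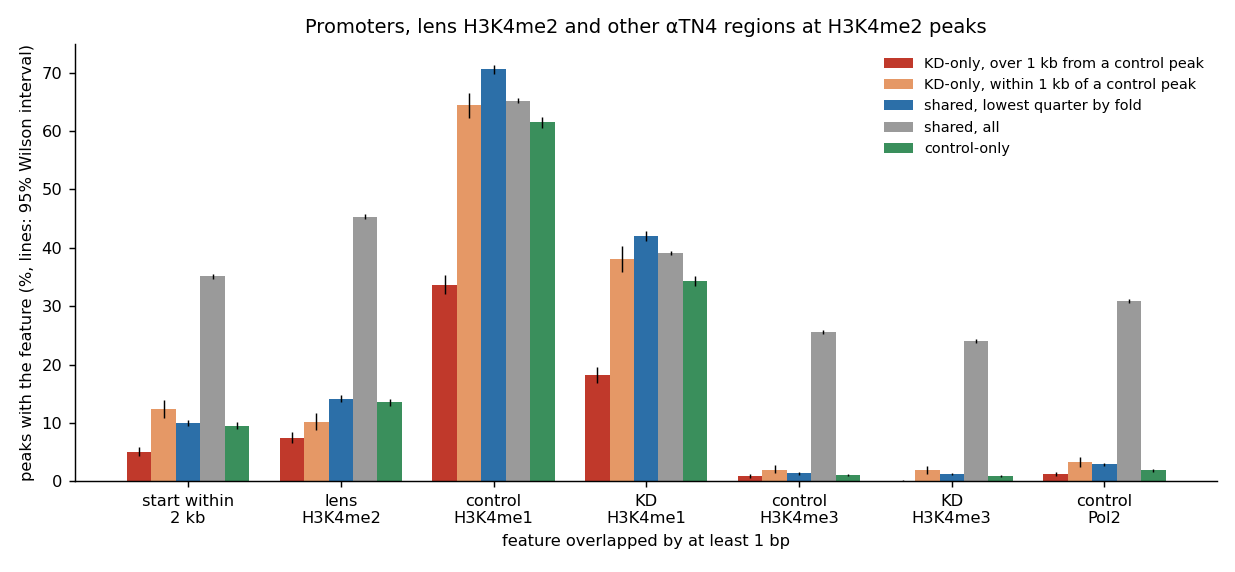
Percentage of H3K4me2 peaks (vertical axis; lines, 95% Wilson intervals) within 2 kb of a protein-coding start or overlapping lens H3K4me2, H3K4me1, H3K4me3 or Pol2, for KD-only peaks far from (red) and near (orange) a control peak, shared peaks of the lowest quartile (blue), all shared peaks (grey) and control-only peaks (green). KD-only peaks over 1 kb from a control peak have the lowest bar for each feature, for example 33.7% for control H3K4me1, where the other groups lie between 61.5% and 70.6%. They include the run at the start of chromosome 9.

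Where H3K4me1 islands held a KD-only peak in both conditions, their read density differed little from that of other islands. Over 1103 pairs of control and KD islands with a KD-only peak, the median was 22.5 ChIP reads per kb in control and 18.3 in KD cells. The median log2 ratio, KD over control, was -0.30, and over all 16064 pairs it was -0.32. Relative to all pairs the difference was 0.01, with an interquartile range from -0.19 to 0.25. Input reads in the same pairs had a median log2 ratio of -0.29. Of the 1277 KD islands with no control island, 69 (5.40%) held a KD-only peak, compared with 6.09% of all KD islands. Only 346 of the 1277 held any KD H3K4me2 peak, against 14567 of all 18417 KD islands. Among islands with KD H3K4me2, 19.9% of those with no control island and 7.70% of all held a KD-only peak.

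H3K4me3 was rare at KD-only sites. Control H3K4me3 was present at 61 (1.26%, 0.984 to 1.62) and KD H3K4me3 at 36 (0.745%, 0.538 to 1.03), against 23.8% and 22.3% of all KD peaks. In shared peaks of the lowest quartile the shares were 1.34% (1.15 to 1.56) and 1.22% (1.04 to 1.43). Of the 61 with control H3K4me3, 20 were in the run at the start of chromosome 9; without that stretch the control share was 0.855%. Control H3K4me3 was at 1.97% (1.42 to 2.72) of KD-only peaks within 1 kb of a control H3K4me2 peak and at 0.851% (0.581 to 1.24) of the others. The others with control H3K4me3 numbered 26, of which 20 were in the run at the start of chromosome 9. Of the 36 with KD H3K4me3, 33 were within 1 kb of a control H3K4me2 peak. H3K4me3 was found in both conditions at 34 KD-only peaks, in control alone at 27 and in KD alone at 2. Of the 27, 20 were in the run at the start of chromosome 9, where no KD-only peak overlapped KD H3K4me3. Others were KD-only peaks with a fold below 2 on chromosomes 2, 6, 9 and 12. A loss of H3K4me3 after knockdown was not tested. H3K4me3 was in control alone at 1315 and in KD alone at 280 of all 65852 KD peaks. In shared peaks of the lowest quartile, the numbers were 22 and 7 of 12550.

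The 2 sites with H3K4me3 in KD cells alone were at Ifi27l2a and Mx2, both interferon-induced genes. The Ifi27l2a peak, at chr12:104681519-104681894, covered a start and was 7.92 kb from the nearest control H3K4me2 peak, with a fold of 4.51. Its KD H3K4me3 peak had a fold of 9.11, the 30.7th percentile of that list, and a Pol2 peak of control cells overlapped the site. The Mx2 peak, at chr16:97758839-97759104 in an intron 1.15 kb from a start, had a fold of 3.82 and was 108 bp from a control peak. Its KD H3K4me3 peak had a fold of 6.89.

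Pol2 of control cells was present at 95 KD-only peaks (1.97%, 1.61 to 2.40), against 28.7% of all KD peaks and 2.88% (2.61 to 3.19) of shared peaks in the lowest quartile. Near a control peak its share was 3.26% (2.53 to 4.19), and farther away 1.21% (0.880 to 1.66). The run at the start of chromosome 9 belongs to the farther group, in which 37 peaks had Pol2. Without the first 3.1 Mb of that chromosome, the Pol2 count over all KD-only peaks fell from 95 to 70 (1.46%). Pax6 of control cells was present at 4 (0.0827%, 0.0322 to 0.213), against 0.515% of all KD peaks and 0.239% (0.168 to 0.341) in the lowest shared quartile. One was in an intron of Dlg2, and the others were between genes, 10.3 kb from the start of 5430407P10Rik, 63.4 kb from that of Slc4a7 and 933 kb from that of Zeb2, with folds from 3.44 to 4.59. All 4 lay in control H3K4me1 islands and 3 in KD islands, and none had H3K4me3 or lens H3K4me2. The Dlg2 site was 27 bp from a control peak.

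The sequence of KD-only sites was richer in A and T than that of the other groups of H3K4me2 peaks. The genome at large was not measured. In windows of 300 bp around the summit, the median G and C content was 43.0% in KD-only peaks, 45.7% in shared peaks of the lowest quartile, 46.3% in all shared peaks and 47.7% in control-only peaks. The mean number of CpG dinucleotides per window was 3.05, 3.71, 5.02 and 4.06 in the same order. KD-only peaks near and far from a control peak had a median content of 43.7% and 42.7%.

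The AP-1 word shown in capitals above occurred in 1026 KD-only windows (21.2%, 20.1 to 22.4), against 13.0% of all KD windows of the same length. It occurred in 18.4% (17.7 to 19.1) of shared windows in the lowest quartile and in 20.4% (19.6 to 21.1) of control-only windows. Far from control peaks the share was 24.1% (22.6 to 25.6), and within 1 kb of them it was 16.4% (14.7 to 18.1). At 40 to 45% G and C, the class with the most KD-only windows, the word was in 23.9% (21.7 to 26.1) of KD-only windows, in 26.2% (23.5 to 29.1) of the far ones and in 20.9% (19.5 to 22.3) of shared windows in the lowest quartile. The intervals of all KD-only and these shared windows overlapped in each class of G and C content. At 55% or more the order was reversed, with 7.14% of KD-only, 9.30% of far KD-only and 11.4% of shared windows.

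Other words were searched on both strands in the same windows. The homeodomain word TAATTA was in 9.89% (9.08 to 10.8) of KD-only windows, 7.13% (6.69 to 7.59) of the lowest shared quartile and 7.44% of all KD windows. The GATA word AGATAA was in 965 of 4834 KD-only windows (18.9 to 21.1%), 16.9% (16.3 to 17.6) of the lowest shared quartile and 16.0% of all. The Sox word ACAATG was in 18.6% (17.5 to 19.7) of KD-only windows and 16.5% (15.9 to 17.2) of the lowest shared quartile, and in 9866 of 65850 windows overall. The E-box CAGCTG was less frequent, at 13.8% (12.9 to 14.8), 16.1% (15.5 to 16.8) and 15.3%. The Ets word CCGGAA was in 150 KD-only windows (2.65 to 3.63%), against 3.47% of the lowest shared quartile and 4.52% of all. The TEAD word GGAATG was in 20.8% (19.6 to 21.9), 19.5% (18.8 to 20.2) and 17.9%. Intervals overlapped between KD-only windows and the lowest shared quartile for the Ets and TEAD words, and also for the Meis word CTGTCA, at 20.4% (19.3 to 21.6) and 21.2% (20.5 to 21.9) beside 20.9% of all. They also overlapped for the Runx word TGTGGT, at 24.0% (22.8 to 25.2) and 24.2% (23.4 to 24.9) beside 20.9% of all. A longer CTCF word was in 0.393% of KD-only and 0.867% of all windows, and a repeat of CA in 2.96% and 2.45%. These words are short, and their shares vary with base composition, which differed between the groups as given above. Its part in the shares other than that of AP-1 was not tested.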

How the data were processed

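Region lists of 9 ChIP-seq libraries were used, 1 library per condition and mark. According to the methods and labels, the authors mapped reads with Bowtie (mm9), used MACS2 for H3K4me2, H3K4me3, Pax6 and Pol2 and SICER for H3K4me1, both at default settings, and state that blacklisted regions were filtered; caller versions are not given in the sources used here. Deposited MACS2 values are a fold (ratio over background) and −log10 p and −log10 q. Deposited SICER values are a read count for the ChIP and for its control library (called input here), a fold, a p-value and an FDR. Depth is unknown for the MACS2 lists. Groups follow the labels; the antibody entries of the Pax6 and Pol2 libraries are crossed, and their titles were followed.

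Overlap means at least 1 bp. Starts come from GENCODE vM1 (51723 protein-coding transcripts). A run joins KD-only peaks within 50 kb with no control peak between them. The rule named the 15 genes with the most KD-only peaks, the 10 with the highest share among genes with at least 8 KD peaks, the 10 strongest peaks, the 5 strongest with lens H3K4me2 and the 5 longest runs. Any other gene outside the gene lists was named after its values were seen, such as Spon1, Sphkap, Tmeff2, Ifi27l2a and Mx2. The peaks and gene lists were chosen with earlier results of these data known. No significance test was made. Interval functions were tested on simulated data and matched a direct search for 100.0% of 800 regions. One of the 15 genes and 1 of the 10 strongest peaks are not reported here by name. RNA-seq was not analysed here. Software was Python 3.11.15 with NumPy 2.4.6, pandas 2.3.3, statsmodels 0.14.6, matplotlib 3.10.9 and pysam 0.24.0, plus samtools 1.23.1. Alternatives are given in the closing section.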

Additional observations from a re-analysis of the deposited data

How the results depend on the processing

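No paired analysis was possible because each condition has 1 library per mark and the labels carry no replicate numbers. In all 7 definitions of KD-only peaks, the 7 shares of promoters, lens H3K4me2, H3K4me1, H3K4me3 and Pol2 were lower in KD-only than in the other KD peaks (49 of 49 comparisons). For KD H3K4me1 at a −log10 q of at least 10 the values were nearly equal, 37.8% of 111 and 38.1% of the others. The definitions are variants of the same list, so the comparisons are not independent. The other KD peaks were also stronger, with a median fold of 7.99 against 4.22 in the main definition. The comparisons were not repeated against shared peaks of similar strength. The sizes of the values moved more.

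With a −log10 q of at least 5 for KD peaks, 2409 KD-only peaks were left, with lens H3K4me2 at 10.4%, control H3K4me3 at 1.83%, KD H3K4me3 at 1.12% and Pol2 at 2.78%, and 9 genes had 5 or more. At 10, 111 were left, 14 of them at the start of chromosome 9, with promoters at 19.8%, lens at 27.0%, control H3K4me1 at 52.3%, KD H3K4me1 at 37.8%, control H3K4me3 at 7.21%, KD H3K4me3 at 1.80% and Pol2 at 15.3%; 0 genes had 5 or more. Without the 14, 97 were left, with lens H3K4me2 at 16.5% and 11 of the 97 at promoters, beside 11 of the 14 at promoters. With no control peak within 1 kb, the 3055 peaks left had promoters at 4.98%, lens at 7.50%, control and KD H3K4me1 at 33.7% and 18.2%, control and KD H3K4me3 at 0.851% and 0.0982%, and Pol2 at 1.21%, and 11 genes had 5 or more. These 3055 include the run at the start of chromosome 9. With control peaks covering under 50% of the KD peak, H3K4me1 was at 50.3% (control) and 28.8% (KD), and 57 genes had 5 or more. Counting only control peaks with a −log10 q of at least 5, there were 7773 KD-only peaks, with promoters at 6.92%, control and KD H3K4me1 at 50.9% and 28.5%, control and KD H3K4me3 at 0.836% and 0.515%, Pol2 at 1.51%, and 87 genes with 5 or more.

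Without the first 3.1 Mb of chromosome 9, chosen after seeing the data, control H3K4me3 was at 0.855% and Pol2 at 1.46%. Within 1 kb in place of overlap, lens was at 15.9%, control H3K4me1 at 46.8%, control and KD H3K4me3 at 3.62% and 2.73%, and Pol2 at 4.20%. With the summit inside the other region, lens was at 7.32% and Pol2 at 1.53%. Islands with an FDR of at most 1e-06 gave 41.7% (control) and 23.0% (KD) for H3K4me1, and lens peaks with a −log10 q of at least 5 gave 7.41%. Promoters of 1 kb gave 4.39%, and the starts of all transcripts 11.7%. With the nearest start and no limit, 57 genes had 5 or more KD-only peaks, 20 of the 28 among them; Ctnna2 then had 0. Inside gene bodies alone there were 18, and Slitrk5 had 0. The cause of these shifts was not tested beyond how each alternative is built. The remaining 24 of 75 alternatives stayed within the interval of the main share or within 1.5 times the main count. Depth limits all statements on absence from a list.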

Other observations

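KD-only peaks of very low fold were found at a few other places besides the start of chromosome 9. Of the 46 with a fold below 2, 36 were in that run, 1 was elsewhere on chromosome 9 (chr9:35112838-35113197, fold 1.29), 3 on chromosome 11 (between 3.04 and 3.09 Mb), 2 on chromosome 2 near 98.5 Mb, and 1 each on chromosomes 6, 12, 15 and X. The 2 on chromosome 2 cover the starts of Gm10800 (fold 1.39) and Gm10801 (fold 1.40) and overlapped lens H3K4me2, control H3K4me1 and control H3K4me3. None of the 46 overlapped KD H3K4me3. All 46 lay in H3K4me1 islands of both conditions. The methods state that blacklisted regions were removed; no blacklist was used here, so whether these places belong to one was not tested.

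The median distance from a KD-only peak to the nearest control-only peak was 53.0 kb, and 436 KD-only peaks (9.02%) had one within 1 kb. An additional interferon-related gene, Gvin1, an interferon-inducible GTPase, had a KD-only peak over a start with a fold of 5.17. This peak was 637 bp from a control H3K4me2 peak, overlapped Pol2 of control cells and carried no H3K4me3 in either condition. It was noticed after the values were seen, and interferon-related genes were not counted as a set.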
